A study of Cucumis sativus with 25 samples.

Results

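The 4 miRNA rows described here, csa-miR160, csa-miR167, csa-miR390 and csa-miR393 (miR160, miR167, miR390 and miR393 below), were taken by name from the 249 rows of the small RNA count table, as the families best known from auxin signalling. Small RNAs were sequenced from shoot apical tissue of cucumber (Cucumis sativus) grown under 4 combinations of temperature and day length, with 3 replicates of each. All plants belonged to the inbred line 9930, were grown in climate chambers at the same humidity and were sampled at the same leaf stage, many apices to a replicate. The warm treatments, HL and HS, were kept at 28 °C in the light and 25 °C in the dark, and the cool treatments, LL and LS, at 20 °C and 15 °C. The long-day treatments, HL and LL, had 16 h of light and 8 h of darkness, and the short-day treatments, HS and LS, had 8 h of light and 16 h of darkness. Polyadenylated RNA was sequenced from the same 12 treatment and replicate combinations, and 1 degradome library was made from a mixture of the treatments.

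Auxin acts on the shoot apex by releasing auxin response factors (ARFs), transcription factors that switch auxin-responsive genes on or off, from their Aux/IAA repressors. In Arabidopsis, miR160 cuts the mRNAs of the repressing factors ARF10, ARF16 and ARF17, miR167 cuts those of the activating factors ARF6 and ARF8, and miR390, bound to the Argonaute protein AGO7, starts the production of trans-acting small RNAs from TAS3 transcripts that in turn cut ARF2, ARF3 and ARF4 mRNAs. miR393 acts one step earlier, on the mRNAs of the TIR1 and AFB auxin receptors, which mark the Aux/IAA repressors for breakdown. The families are shared by most flowering plants and are known for roles in leaf outgrowth, flower development and root branching.

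The count table gives 1 mature sequence to a row, and these sequences show which strand of each precursor the row stands for. They are printed with the seed (bases 2 to 8) in capitals:
miR160: gCGTATGAggagccaagcata
miR167: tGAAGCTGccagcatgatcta
miR390: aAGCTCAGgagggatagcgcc
miR393: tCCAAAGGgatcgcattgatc
The last 3 are 5p sequences, cut from the left arm of the hairpin, and are the strands known to guide cleavage in each family. The miR160 row is the exception, since its sequence is the 3p strand of the precursor miR160b. The ARF-targeting strand of the family is the 5p strand, which the study lists for all 3 of its miR160 precursors:
miR160 5p: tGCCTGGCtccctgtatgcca
The label of an auxin-pathway miRNA therefore goes with the listed sequence in 3 of the 4 rows, and the values given below for miR160 are those of a row that lists the opposite strand. The study counted tags that differ from a mature sequence at the ends only, a rule that 5p tags would not meet for the listed 3p sequence. Whether the row also sums other mature sequences of the family is not given in the sources used here, so its values may not measure the 3p strand alone. Counts of the 5p strand were not analysed here. Of the 68 rows of known families, 40 carried a 5p sequence, 27 a 3p sequence and 1 neither. Among the 28 known families with both strands listed, 12 rows carried the 3p sequence, so miR160 was not alone in this.

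The miR160b precursor lies on the plus strand at chr6:18254065-18254189 of the 9930 genome (the v20 assembly named by the study). Its hairpin of 125 bases is shown because it holds both strands, which are in capitals, the 5p strand first:
miR160b: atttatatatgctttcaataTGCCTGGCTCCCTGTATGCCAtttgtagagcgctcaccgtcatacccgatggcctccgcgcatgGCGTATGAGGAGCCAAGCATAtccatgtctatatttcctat
Laid against each other with the usual 2-base overhang, the strands faced each other at 19 positions, of which 14 were Watson-Crick pairs, 3 were G:T pairs and 2 were unpaired. The 3p sequence of miR160a differed from that of miR160b by A16T (counted from the 5′ end, the miR160b base first), and miR160c had no 3p sequence listed.

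The miR167 family had 6 precursors. The sequence of its row was listed for miR167c and miR167e, and that of miR167a, miR167d and miR167f differed from it by A21G, in the last base only. The sequence of miR167b, longer by 1 base, differed by G2C, which lies inside the seed:
miR167b 5p: tCAAGCTGccagcatgatctaa
All 4 miR390 precursors and all 3 miR393 precursors shared the 5p sequence of their row. No seed was shared between the 4 rows, and only the miR167 seed recurred in another row of the table, n-mir293. Here n-mir stands for the prefix that the files give to miRNAs outside the known families.

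The clean reads of the small RNA libraries, used as library sizes, were 16634520–17659346, and the summed miRNA counts were 609415–1551482 (median 918724), or 3.604–8.97% of the clean reads. Levels are given as CPM, counts per 1000000 clean reads, so that a count of 3, taken as the floor, was 0.17–0.18 CPM. As bulk tissue was sequenced, fewer cells of a type and less RNA per cell cannot be told apart. The shoot apex markers chosen for a check of the tissue could not be matched by name, because the gene table used here gave no product names for the gene IDs of the files.

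Levels fell into 4 separate ranges over the 12 libraries. miR167 was at 5400–21892 CPM, miR390 at 461–1288 CPM, miR160 at 75.4–283 CPM and miR393 at 0.405–2.89 CPM, and none of these ranges met. By counts within a library miR167 ranked 2–3, miR390 ranked 6–10, miR160 ranked 18–30 and miR393 ranked 139–197. A miR393 row with 7–48 counts per library is thus known far less precisely than the others, with a Wilson 95% interval of 0.000219–0.000931% around its lowest share of the miRNA counts, 0.000451% in LS replicate 1. Such intervals cover counting error only.

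**Figure D1:**
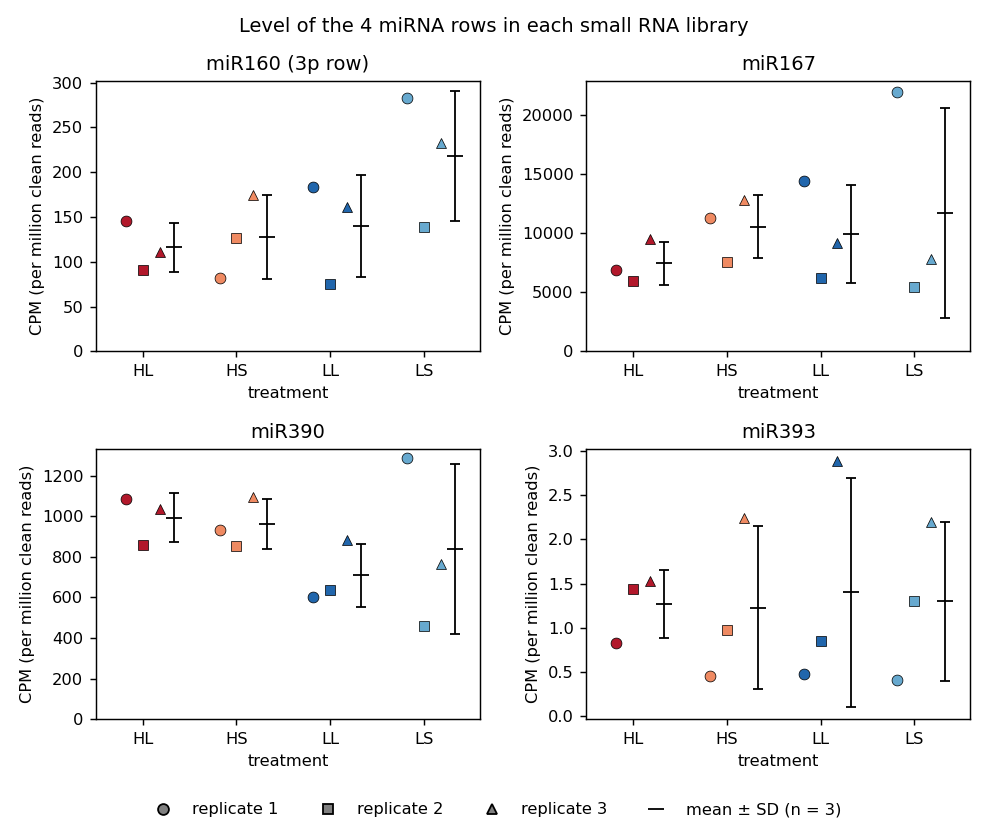
Level of each row in CPM (linear axis from 0) in the 12 small RNA libraries, by treatment. Marker shapes give the replicate number and the dash with bars the mean ± SD (n = 3). The ranges of the treatments overlap in every panel, miR167 reaches 21892 CPM in LS replicate 1 only, and miR393 is lowest in replicate 1 of each treatment.

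miR160, as its 3p row, was at 146, 91.2 and 111 CPM in the HL replicates and 81.3, 126 and 175 CPM in HS, the warm treatments, against 184, 75.4 and 162 CPM in LL and 283, 139 and 233 CPM in LS. HL averaged 116 ± 27.5 CPM, HS 127 ± 46.7, LL 140 ± 57.2 and LS 218 ± 73.0 (SD, n = 3 each). LS thus held the highest mean and the 2 highest libraries, but its lowest library lay within the range of each of the other treatments. In the HL vs LS comparison, where temperature and day length differ together, the log2 change was -0.91 (95% interval -1.70 to -0.12), with an adjusted p of 0.102 in edgeR's quasi-likelihood test (Benjamini-Hochberg over 248 miRNAs). This change was -1.15 without LS replicate 2 (adjusted p = 0.0442) and -0.68 without LS replicate 1 (adjusted p = 0.270). In HS vs LS it was -0.78 (-1.56 to 0.01, adjusted p = 0.202). The average temperature change was -0.52 (SE 0.26, adjusted p = 0.176) and the average day-length change was -0.39 (SE 0.26, adjusted p = 0.633). Every one of the 6 treatment pairs gave miR160 a negative log2 change with the warmer or longer-day treatment on top, from -0.91 to -0.14, though these pairs share libraries. With the summed miRNA counts as library sizes its average day-length change was 0.036, so the direction for day length depended on the scaling.

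miR167, the family that cuts activating ARF mRNAs in Arabidopsis, was at 6893, 5939 and 9478 CPM in HL and 11309, 7545 and 12761 CPM in HS, against 14385, 6188 and 9154 CPM in LL and 21892, 5400 and 7809 CPM in LS. The LS group contained both the highest and the lowest of the 12 libraries. HL averaged 7437 ± 1831 CPM, HS 10538 ± 2692, LL 9909 ± 4150 and LS 11700 ± 8908 (SD, n = 3 each). The coefficient of variation in LS was 76.1%, against a median of 26.8% over the 179 miRNAs with a mean of at least 10 counts per library. The temperature change was -0.28 (95% interval -1.06 to 0.50, adjusted p = 0.697) and the day-length change -0.37 (-1.15 to 0.41, adjusted p = 0.738, edgeR). The intervals still hold changes of about 2-fold downward, so a drop of that size was not excluded with this spread. Both directions rested on LS replicate 1, without which the temperature change was 0.13 and the day-length change 0.041. LS replicate 1 was also the library with the largest summed miRNA counts, and over the 12 libraries miR167 followed the summed miRNA CPM with a Pearson r of 0.887, a value that includes the contribution of miR167 itself to the sum.

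miR390, the trigger of TAS3-derived small RNAs, was at 1087, 858 and 1034 CPM in HL and 933, 854 and 1097 CPM in HS, against 602, 638 and 884 CPM in LL and 1288, 461 and 765 CPM in LS. It was the steadiest of the 4 in the warm treatments, with a coefficient of variation of 12.1% in HL and 12.9% in HS, below the medians of 15.3% and 18.0% over the 179 miRNAs. HL averaged 993 ± 120 CPM, HS 961 ± 124, LL 708 ± 153 and LS 838 ± 418 (SD, n = 3 each). All 6 warm libraries lay above 4 of the 6 cool ones, the exceptions being LL replicate 3 and LS replicate 1, which was the highest of all. The temperature change was 0.34 (95% interval -0.15 to 0.84, adjusted p = 0.374), the HL vs LL change 0.49 (-0.21 to 1.19, adjusted p = 0.433) and the day-length change -0.10 (-0.59 to 0.39, adjusted p = 0.935, edgeR). With the clean reads as library sizes and all 12 libraries, miR390 had the only positive temperature change of the 4 rows, though under other scalings or without single libraries miR167 and miR393 were positive too. The miR390 change was 0.57 without LS replicate 1 (adjusted p = 0.0518) and 0.20 without LS replicate 2 (adjusted p = 0.558), and neither was called.

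miR393, the miRNA of the auxin receptor mRNAs, had 14, 24 and 26 counts in HL and 8, 17 and 38 in HS, against 8, 15 and 48 in LL and 7, 22 and 37 in LS. The means were almost level, with 1.27 ± 0.383 CPM for HL, 1.23 ± 0.922 for HS, 1.40 ± 1.30 for LL and 1.30 ± 0.896 for LS (SD, n = 3 each). The spread lay within the treatments instead, where replicate 1 was the lowest and replicate 3 the highest in all 4 of them. Of the 179 miRNAs, 11 (6.15%) had 1 and the same order of replicate numbers in all 4 treatments. The temperature change was -0.11 (95% interval -1.17 to 0.94, adjusted p = 0.908) and the day-length change 0.08 (-0.97 to 1.13, adjusted p = 0.954, edgeR).

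**Figure D2:**
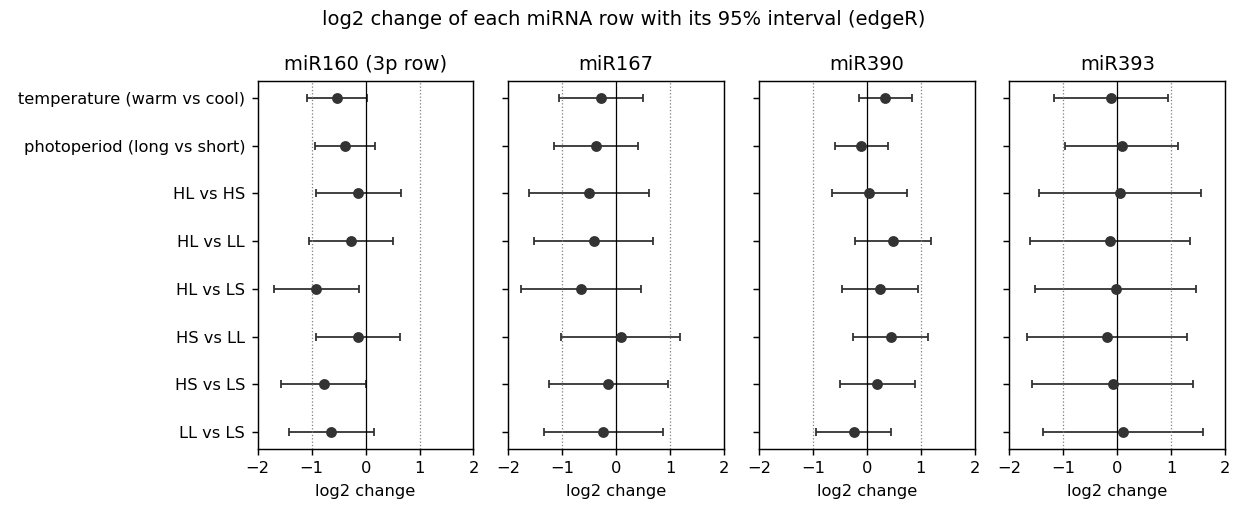
log2 change (points) with its 95% interval (bars) from edgeR for each row, as warm vs cool, long vs short day, and the 6 treatment pairs with the first-named treatment on top. Dotted lines mark a 2-fold change. Only the HL vs LS interval of miR160 leaves out 0, and no row reached a call.

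A miRNA was called where it changed over 2-fold with an unadjusted p under 0.001. None of the 4 rows was called for temperature, where 7.26% of the 248 tested miRNAs were, for day length (0.806%), for the interaction of the factors (0%) or in any of the 6 treatment pairs (8.87%). Singly, the pairs HS vs LS and HL vs LL each had 4.03% of miRNAs called, HS vs LL 2.42%, HL vs LS 6.85%, HL vs HS 0.806% and LL vs LS 0%. Of the 36 tests of the 4 rows, 1 had an unadjusted p under 0.05 in edgeR (HL vs LS of miR160, in a comparison where 30.2% of all miRNAs had one), and 1 in DESeq2 (temperature of miR390, where 32.3% of all miRNAs had one in edgeR). With the summed miRNA counts as library sizes 5 had one, 4 of them for miR390, and with the replicate number as a block 3 had one, all for miR160. The share of all miRNAs with one was not counted under these settings, so whether these counts are unusual cannot be told. The adjusted p of the 4 interaction terms was 0.937–0.980. In the temperature comparison the median log2 change of all 248 miRNAs was -0.11, so that relative to it miR160 was at -0.42, miR167 at -0.18, miR390 at 0.45 and miR393 at -0.01. With library sizes scaled by TMM, which moved that median to 0.05, the log2 change of miR390 was 0.52 (edgeR adjusted p = 0.0941) and that of miR160 was -0.35 (adjusted p = 0.369).

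The CPM ranges of the treatments overlapped for all 4 rows in all 6 pairs. Of the 248 miRNAs, 32.7% had ranges without overlap between HL and LS, 28.6% between HL and LL, 26.2% between HS and each of LL and LS, 23% between HL and HS and 5.65% between LL and LS. As a share of the summed miRNA counts, a scale that leaves out the differences in total miRNA between libraries, some did not. miR390 took 3.02, 2.09 and 1.84% of the miRNA counts in HL and 1.61, 1.71 and 1.30% in HS, against 1.05, 1.73 and 1.64% in LL and 1.44, 1.15 and 1.37% in LS. All 3 HL libraries were above all 9 others on this scale, an order that was not counted over all miRNAs. Share ranges did not overlap for 26.2% of the 248 miRNAs in HL vs HS, 19.4% in HL vs LL and 18.5% in HL vs LS, beside 25% in HS vs LL and 7.66% in LL vs LS, and the summed miRNA counts of HL were the lowest as a group by their median. With the summed counts as library sizes, edgeR gave miR390 a log2 change of 0.81 in HL vs LS (adjusted p = 0.0647). In the same test its change was 0.58 in HL vs HS (adjusted p = 0.40) and 0.65 in HL vs LL (adjusted p = 0.275). The median changes of all tested miRNAs on this scale were 0.20, 0.51 and 0.10 in the same order, so most miRNAs were higher in HL too. miR160 took 0.141, 0.253 and 0.208% in HS, against 0.315, 0.346 and 0.416% in LS, which did not overlap either (19% of the 248 miRNAs did not), and its HL and LL shares spanned 0.197–0.404%. miR167 took 13.5–25.2% of the counts, with the highest share of each treatment in replicate 1 (19.1% for HL, 19.6% for HS, 25.2% for LL and 24.4% for LS).

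**Figure D3:**
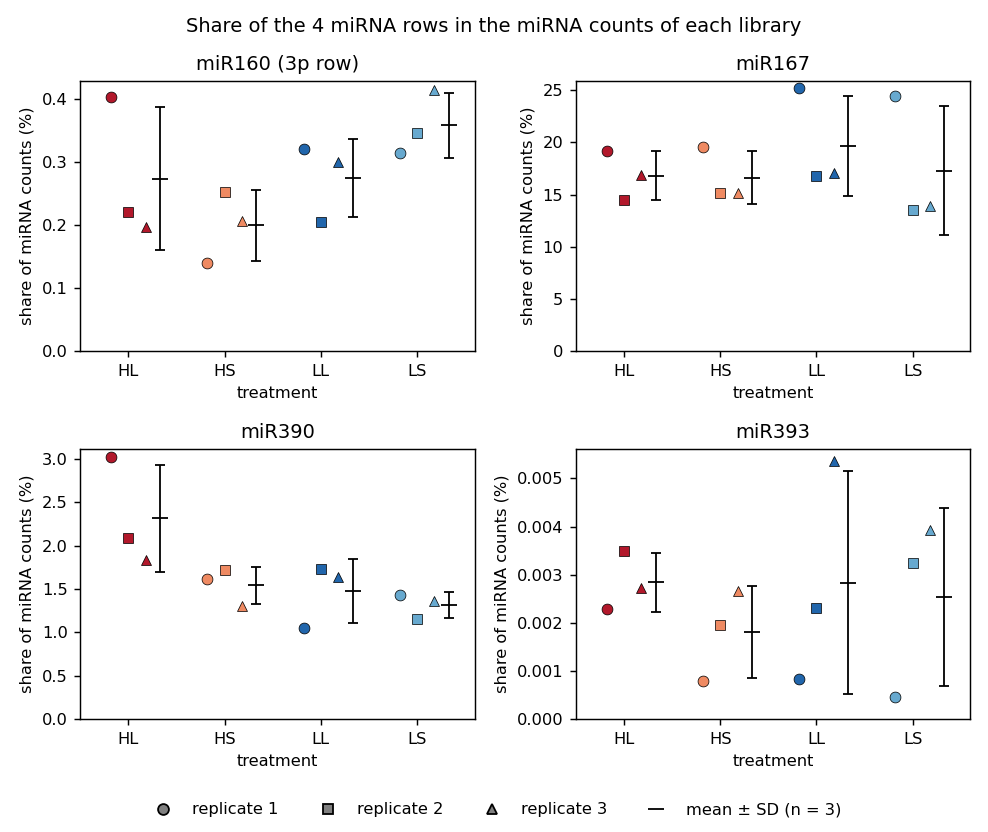
Share of each row in the summed miRNA counts of its library, in percent (linear axis from 0), by treatment and replicate, with the mean ± SD (n = 3). The 3 HL libraries of miR390 (1.84–3.02%) lie above those of the other treatments, the 3 HS libraries of miR160 lie below the 3 LS libraries, and miR167 is highest in replicate 1 of each treatment.

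Among themselves, the 4 rows moved together only loosely over the 12 libraries. On log2(CPM + 1), the 6 pairs gave Pearson r values of -0.333 to 0.565, the highest for miR160 with miR167 (Spearman 0.538). None passed a permutation test after Benjamini-Hochberg adjustment over the 6 pairs (smallest adjusted p 0.248 for Pearson and 0.282 for Spearman). The r of miR160 with miR167 was 0.196 without the 2 libraries farthest from the miR160 median, so it rested on these, and 0.642 on deviations from the treatment means. Scaled to the summed miRNA counts instead of the clean reads, the r of this pair was 0.021, and -0.002 on such deviations. With CPM of the summed miRNA counts, the r of miR167 with miR393 was -0.818 (permutation p = 0.00208, adjusted 0.0125) and its Spearman rho was -0.664 (adjusted p = 0.132). Without the 2 libraries farthest from the miR167 median it was -0.560, and within treatments it was -0.934. On this scale the highest miR167 share of each treatment lay in replicate 1, where miR393 was lowest, and on deviations from the means of each replicate number the r was -0.493. The permutation took the 12 libraries as exchangeable and did not allow for the numbers. On clean reads the same pair gave -0.333, so this relation appeared on 1 of the scales only. miR167 itself made up 13.5–25.2% of the summed counts, so on that scale the shares of other rows are not independent of it. Its median r with the 178 others that had a mean of at least 10 counts was -0.223 there, beside 0.053 on clean reads. How much of the relation with miR393 comes from this was not tested.

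The miRNAs most like each row were sought among 178 others with a mean of at least 10 counts per library, by the Pearson r of log2(CPM + 1) over the 12 libraries, as a description. For miR160 they were miR2950 (r = 0.839), miR1886 (0.829) and n-mir78 (0.788). For miR167 they were n-mir113 (0.946), miR396 (0.917) and miR164 (0.911), the last known for cutting CUC boundary gene mRNAs. For miR390 they were n-mir80 (0.770), miR172, which acts on APETALA2-like mRNAs in the phase change (0.754), and miR408 (0.706). For miR393 they were n-mir230 (0.916), miR7129 (0.870) and n-mir272 (0.865). None of the 4 rows was among the nearest of another. The lists depended on the scaling. With the summed miRNA counts, miR1886 left that of miR160, miR396 that of miR167 and n-mir272 that of miR393, and of the miR390 list only n-mir80 stayed. Counts per library were low for n-mir80 (9–21) and n-mir78 (12–40).

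The possible targets were the genes to which both prediction programs of the study gave a score for a member on the sense strand. They numbered 7 for miR160, 6 for miR167, 2 for miR390 and 2 for miR393, and 16 of the 17 were in the mRNA table, all but Csa3M145240.1 of miR167. The lists do not say from which strand the miR160 targets were predicted. The gene IDs could not be matched to names here, so which of them encode ARFs or receptors is not given. All 16 passed the filter on low values (at least 1 FPKM, fragments per kilobase of transcript scaled to library size, in at least 3 libraries), and their treatment means were 5.37–489 FPKM. The highest were Csa3M597350.1 (miR393, 408–541 FPKM over the 12 libraries) and Csa4M293870.1 (miR160, 231–384 FPKM), and the lowest Csa6M445070.1 (miR160, 3.17–8.71 FPKM).

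Of the 16 targets, 0 changed over 2-fold in mean FPKM with an adjusted p under 0.05 in limma, for temperature (3.95% of 18655 genes did) for day length (0.311%) or for the interaction (0.0482%). The same count was 0 in HS vs LS (4.3% of all genes), HL vs LL (2.12%), HL vs HS (0.541%) and LL vs LS (0.0322%). At an unadjusted p under 0.05 they numbered 5 for temperature (36.8% of all genes), 3 for day length (12.4%) and 3 for the interaction (8.57%). Without the fold limit, 3 of 16 had an adjusted p under 0.05 for temperature, where 24.1% of all genes did, and 1 of 16 for day length, where 1.09% did. By direction, 1 target was higher (12.7% of all genes) and 2 were lower (11.4%) in the warm treatments, and the 1 target of day length was higher in long days (0.45%). The median log2 change of the 16 targets was -0.05 for temperature, beside 0.02 over all genes, and 0.01 for day length, beside -0.01 over all genes. Their log2 changes, on the log2(FPKM + 1) scale, were -0.56 to 0.56 for temperature and -0.19 to 0.35 for day length.

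The 2 targets with the clearest temperature difference were both listed for miR167, carry consecutive IDs and moved in opposite directions. Csa2M250950.1 was at 10.5, 8.92 and 9.90 FPKM in HL and 11.97, 8.35 and 8.42 FPKM in HS, against 10.7, 14.2 and 14.4 FPKM in LL and 14.6, 16.8 and 18.2 FPKM in LS. Only HS replicate 1 among the warm libraries reached above a cool one, LL replicate 1. The temperature change was -0.56 (SE 0.12, limma adjusted p = 0.00502), a mean of 0.652 times the cool level.

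Csa2M250960.1 was at 28.2, 23.9 and 19.2 FPKM in HL and 32.4, 32.25 and 24.7 FPKM in HS, against 17.6, 16.95 and 17.8 FPKM in LL and 15.9, 22.1 and 15.8 FPKM in LS. Here LS replicate 2 was the only cool library above a warm one. The temperature change was 0.56 (SE 0.12, limma adjusted p = 0.00449), a mean of 1.51 times the cool level. Both differences had an adjusted p under 0.05 without each of the 12 libraries in turn (largest 0.0153), and both stayed under 2-fold. Whether reads are shared between the 2 genes was not tested. miR167 itself, at -0.28 with an interval across 0, was not called in this comparison.

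In HS vs LS, another miR167 target, Csa6M538600.1, was at 13.5, 14.2 and 18.1 FPKM in HS, against 10.9, 8.82 and 7.81 FPKM in LS. The ranges did not overlap, for which no share of all genes was counted, and the change was 0.68 (SE 0.20, limma adjusted p = 0.0326). With Csa2M250950.1 (-0.74, adjusted p = 0.0106) and Csa2M250960.1 (0.71, adjusted p = 0.0118) it was 1 of 3 of the 16 targets with an adjusted p under 0.05 in this pair, where 17.7% of all genes had one, 9.77% higher and 7.92% lower in HS. In HL vs LL none of the 16 had one (5.24% of all genes). The interaction of these 3 was not past the threshold either (adjusted p 0.524–0.771), so a difference between the day lengths in their response to temperature was not shown.

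Csa4M293870.1, listed for miR160, was at 318, 330 and 300.3 FPKM in HL and 384, 357 and 317 FPKM in LL, the long-day treatments, and at 241, 231 and 266 FPKM in HS and 300.1, 289 and 272 FPKM in LS. The long-day libraries were all above the short-day ones of the same temperature, an order that was not counted over all genes. The day-length change was 0.33 (SE 0.06, limma adjusted p = 0.0250), a mean of 1.25 times the short-day level, and the temperature change was -0.19 (SE 0.06, adjusted p = 0.0423). Neither is firm, since the adjusted p was 0.05 or more for day length without 7 of the 12 libraries (largest 0.0782) and for temperature without 8 of them (largest 0.0984).

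**Figure D4:**
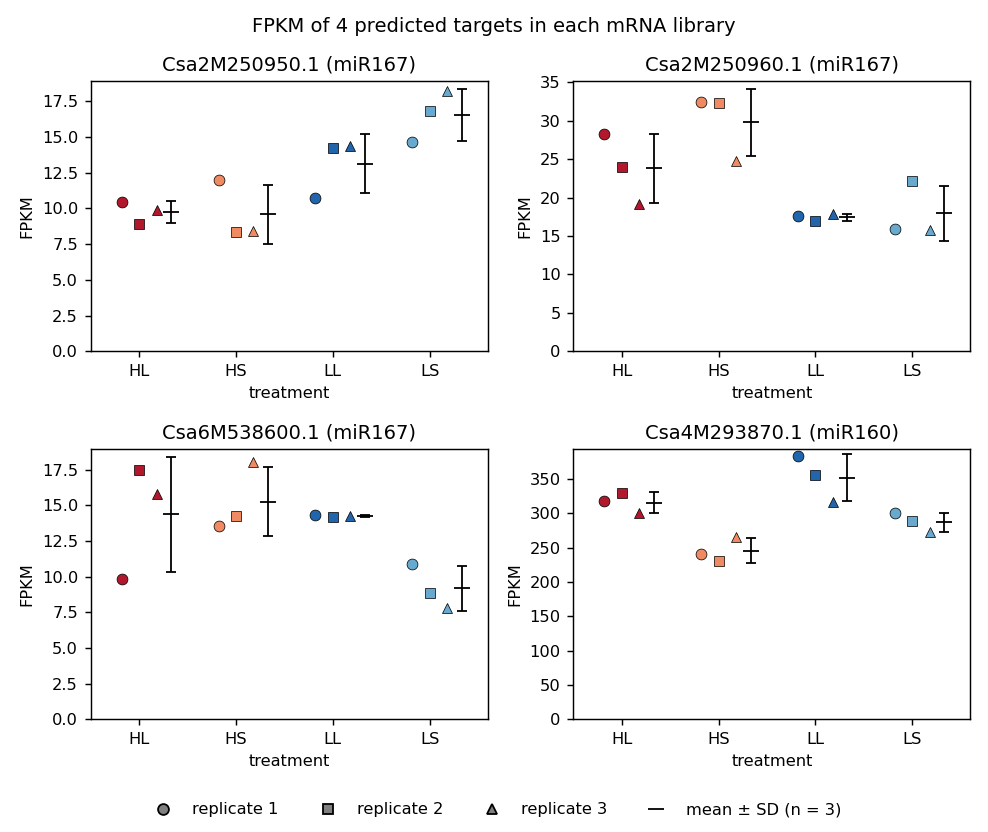
FPKM (linear axis from 0) of the 3 predicted miR167 targets and 1 predicted miR160 target described in the text, in the 12 mRNA libraries by treatment, with the mean ± SD (n = 3). Csa2M250950.1 is lower and Csa2M250960.1 higher in the warm treatments (HL, HS) than in the cool ones (LL, LS), with 1 library each out of that order, and Csa4M293870.1 is higher in long days at both temperatures.

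The remaining 12 targets did not pass in any of these comparisons. Among them the miR390 targets Csa2M354040.1 and Csa4M166920.1 had temperature changes of 0.10 and -0.07, and the miR393 targets Csa3M597350.1 and Csa7M393970.1 of -0.10 and -0.04. Of these the most precise, Csa7M393970.1, had a 95% interval of -0.14 to 0.07.

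Over the 12 treatment and replicate combinations, a miRNA row and its predicted target gave a negative Pearson r in 9 of the 16 pairs and a positive one in 7. The values ran from -0.246 to 0.464, and no pair passed a permutation test after adjustment over the 16 (smallest adjusted p 0.999 for Pearson and 0.956 for Spearman). The r of miR167 was -0.066 with Csa2M250950.1 and -0.246 with Csa2M250960.1. The largest in size, 0.464, was that of miR393 with Csa3M597350.1 (unadjusted permutation p = 0.128, Spearman 0.490), which was positive. With the miRNAs as shares of the summed counts, 7 of the pairs were negative and 9 positive, and the smallest adjusted permutation p was 0.684 for Pearson and 0.277 for Spearman. On that scale 1 of the 16 had an unadjusted p under 0.05, miR393 with Csa3M597350.1 (r = 0.593, permutation p = 0.0427).

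The degradome list was searched for tags that begin at the position where a member would cut, opposite bases 10 and 11 of the miRNA. For the 20 mature sequences listed for the 4 families, 0 of the 5359 distinct tags (263397 copies) began with the reverse complement of bases 1 to 10. No record in this list named an mRNA, while 2349 tags matched a record that named rRNA and 803 one that named tRNA, so the list is no measure of cleavage of the predicted targets. The study itself aligned degradome tags to cDNA and reported genes cut by known miRNA families, a result not used here.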

How the data were processed

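The small RNA values are tag counts as deposited: the authors removed adapters, kept tags of 18–30 nt, aligned them to the 9930 genome and summed, for each mature miRNA, tags with mismatches at the ends only. Where precursors share a mature sequence, 1 member was counted. For mRNA, the authors deposited FPKM per gene. The degradome values are copies per tag, deposited as counts. The submitters' processing notes name Bowtie and RSEM without roles or versions. The number of per-sample columns not used is 0.

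Samples were grouped by title. The 248 of 249 miRNAs with at least 10 summed counts were fitted in 1 edgeR 4.0.16 quasi-likelihood model with the study's clean reads as library sizes. Calls needed a change above 2-fold at p below 0.001, unadjusted. Standard errors came from the log2 change and the F statistic. The 18655 genes with FPKM of at least 1 in 3 libraries were fitted in limma 3.58.1 after a log2 transform with a pseudocount of 1, with the variance trend on. Tests are two-sided, and correlations used 100000 permutations. Replicates are biological by the study's account. The code used R 4.3.3 and was tested on simulated data. Alternatives were other library sizes, filters, pseudocounts and thresholds, DESeq2 1.42.0, a replicate block and leaving out each library.

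Named are the 4 rows, their predicted targets and the 3 miRNAs most like each row. Target IDs, sequences and precursor positions come from the study's supplementary lists. The members and lists were chosen with earlier results of these data known. A planned list of auxin pathway genes and the tissue markers were not used here, since the gene table gave no product names for these IDs.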

Additional observations from a re-analysis of the deposited data

Results flagged for a closer look

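Csa6M141390.1, a predicted miR160 target, stood out because its temperature difference ran in opposite directions in the 2 day lengths. It was at 31.0, 27.3 and 27.5 FPKM in HL, against 33.8, 34.4 and 33.01 FPKM in LL, and at 32.6, 33.2 and 34.1 FPKM in HS, against 29.6, 30.01 and 29.2 FPKM in LS, with no overlap within either pair. How many of all genes had such opposite ranges was not counted, so how unusual this is cannot be told. The interaction term was -0.40 (SE 0.12, unadjusted p = 0.00477) and did not pass adjustment over 18655 genes (limma adjusted p = 0.351). Of the 16 targets, 3 had an unadjusted interaction p under 0.05, beside 8.57% of all genes.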

How the results depend on the processing

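By over 2-fold and an unadjusted p under 0.001, no member was called under any alternative library size, test or filter, with a replicate block, or without any 1 of the 12 libraries. Without 1 library in turn, the HL vs LS change of miR160 was -1.15 to -0.68, and without LS replicate 2 its adjusted p of 0.0442 would pass a limit of 2-fold and 0.05. Signs were less stable. The temperature change of miR393 was 0.040 with TMM library sizes and 0.014 in DESeq2. With the summed miRNA counts as library sizes, which moved the median day-length change of all miRNAs to 0.32, the day-length change was 0.036 for miR160, 0.10 for miR167 and 0.37 for miR390, and the r of miR160 with miR390 was -0.054 and that of miR167 with miR390 was -0.078. Without 1 library in turn, temperature changes were -0.67 to -0.40 for miR160, -0.45 to 0.13 for miR167, 0.20 to 0.57 for miR390 and -0.50 to 0.42 for miR393, and day-length changes were -0.51 to -0.24, -0.56 to 0.041, -0.24 to 0.13 and -0.45 to 0.46 in the same order. The changes of sign came without LS replicate 1 for miR167 and for miR390 in day length, and for miR393 without HL replicate 1 or 3, HS replicate 1, LL replicate 3 or LS replicate 1 or 3. The targets passing adjustment were 3 for temperature and 1 for day length without the fold limit, against 0 with it. As shares of clean reads, the means were 0.0150% for miR160, 0.990% for miR167, 0.0875% for miR390 and 0.00013% for miR393. The cause of these shifts was not tested.

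Replicate numbers were checked as a possible pairing. Deviations from the treatment means correlated by 0.275 on average over the 18 same-numbered pairs of small RNA libraries (14 of them over 0.1). The mean over the 36 others, -0.130, is no separate contrast, since the deviations cancel within a treatment. The largest same-numbered values were those of LL with LS (0.781, 0.745 and 0.531). Of the 12 small RNA libraries, 11 correlated best with a library of their own number, a hint from the data and not the design. In the mRNA libraries the same-numbered mean was 0.024, with 1 of 18 pairs over 0.1, and 7 of 12 libraries correlated best with their own number. With the replicate block, the temperature change was -0.46 for miR160 (adjusted p = 0.154) and 0.37 for miR390 (adjusted p = 0.200), the HL vs LS change of miR160 was -0.88 (adjusted p = 0.0530), the temperature difference of Csa4M293870.1 had an adjusted p of 0.0501, and in HS vs LS Csa7M379090.1 had one of 0.0446, against 0.0781 without the block. The other target differences named in the report stayed under 0.05. The block with TMM library sizes, chosen after seeing the data, gave temperature changes of 0.54 for miR390 (adjusted p = 0.0486), 0.026 for miR167 and 0.14 for miR393.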

Other observations

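The 3 miRNAs most like miR393 all contain the letters GATCG, which miR393 holds from base 9. This was noticed after the values were seen and is given as a description. With the letters in capitals, they are:
miR393: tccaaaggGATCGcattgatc
n-mir230: ctaaatttaaatGATCGtttt
miR7129: tcaaatctaaacGATCGtttttc
n-mir272: accaagagctaaacGATCGtgta
GATCG occurred in 12 of the 179 mature sequences with a mean of at least 10 counts (6.70%), and its reverse complement CGATC in 4 (2.23%), of which 3 hold both in overlap. The 11 rows with GATCG other than miR393 had a median r with miR393 of 0.822 (0.007 to 0.916), beside a median of -0.020 (-0.795 to 0.762) over the 167 rows without it. The 11 include the 3 that drew attention to the letters, and without these the median over the other 8 was 0.742 (0.007 to 0.850). n-mir216, at 0.007, and miR6440, at 0.396, were the lowest of the 11. In all of the 11 but miR6440, n-mir272 and n-mir323, and so also in n-mir216, GATCG is followed by TT, while in miR393 it is followed by CA. Whether these rows are related to each other in sequence was not tested. The 1 row with CGATC and not GATCG, miR1038, had an r of -0.059. The library numbered 1 was the lowest of its treatment in all 4 treatments for 9 of the 12 rows with GATCG, beside 20 of all 179 rows (11.2%), which include these 9. Those 12 include miR393, which has this order itself, and the 3 rows picked for their likeness to it. The count therefore follows in part from how the letters were found. miR7129, with 1271–4332 counts, had this order at counts far above the 7–48 of miR393. These values all come from the same 12 libraries and are not independent of each other.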
